A study of Narcissus tazetta subsp. chinensis with 8 samples.

Results

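SWEET4 and neutral/alkaline invertase 3 are 2 genes of sugar handling in the flower of Chinese narcissus (Narcissus tazetta subsp. chinensis, cultivar Jinzhanyintai). They are 2 of 81096 assembled genes in the deposited tables, and both are among the 50576 genes listed for every library. The members were named by their assembly identifiers, c54457.graph_c0 for SWEET4 and c100681.graph_c1 for the invertase. Both were chosen by their FPKM differences between days and tissues in these same libraries, and both are called in corolla by the authors' deposited table. Their levels and differences are therefore given as a description, with no test.

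RNA was sequenced from 8 libraries in 4 groups of 2 biological repeats. The groups were corolla on day 7 at full bloom, corolla on day 1 at early flowering, petal on day 7 and petal on day 1. All plants were of the same cultivar, grown in a plantation with no treatment named. The labels do not give the number of flowers in a repeat or how corolla was parted from petal, so p-values measure only the spread between these repeats. Levels are FPKM, a fragment count scaled to transcript length and to the mapped fragments of the library. Relative depth ran from 0.678 to 1.03 of corolla day 1 repeat 1, and 23336 to 29601 genes per library reached 1 FPKM.

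Sucrose is the form in which most plants move sugar into petals and other sink organs. SWEET proteins are membrane uniporters that let sugars pass down their gradient. Those of the SWEET4 type mainly carry hexoses, and in maize and rice SWEET4 genes serve the filling of the seed. Neutral/alkaline invertases cut sucrose into glucose and fructose, and different members work in the cytosol, mitochondria or plastids.

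The names rest on database hits. The best Swiss-Prot hit of c54457.graph_c0 was rice bidirectional sugar transporter SWEET4, and its Nr hit was a banana SWEET4-like protein. The best Swiss-Prot hit of c100681.graph_c1 was rice neutral/alkaline invertase 3 with a plastid location. Its Nr hit was a date palm invertase named CINV1, with no plastid in the name. The plastid location of the narcissus enzyme thus comes from the rice hit and the chloroplast term assigned with it, and was not measured. A further assembled gene with the same component number, c100681.graph_c0, has no description in the tables used here. It stood at 2.28 and 0.97 FPKM in corolla on day 7 and was listed at 0 in corolla on day 1. Petal libraries had 0.82 and 3.3 FPKM on day 7, against 0.9 and 0.66 FPKM on day 1. Whether reads are shared between the 2 assembled genes was not tested.

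SWEET4 transcripts were abundant in corolla on day 1 and scarce in every other group. In corolla the level was 0.22 and 0.95 FPKM on day 7, against 133.77 and 57.79 FPKM on day 1. Petal libraries were listed at 0 and 0 FPKM on day 7, against 0.31 and 1.15 FPKM on day 1. Both corolla day 1 libraries lay far above the other 6, and they differed from each other by 2.31-fold.

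**Figure D1:**
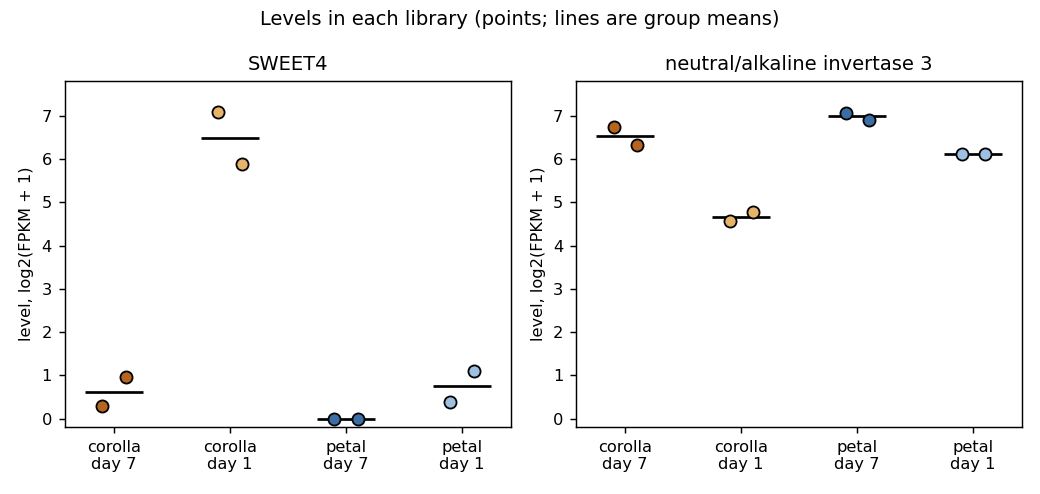
Levels of SWEET4 (left) and neutral/alkaline invertase 3 (right) in each library, on the log2(FPKM + 1) scale, by tissue and day. Points are single libraries and lines are means of 2. SWEET4 is high in corolla on day 1 alone (133.77 and 57.79 FPKM), and the invertase is lowest in the same group (22.67 and 26.25 FPKM).

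The group means of SWEET4 were 0.585 ± 0.516 FPKM in corolla on day 7 and 95.8 ± 53.7 FPKM in corolla on day 1 (SD, n = 2 each). Corolla day 7 was lower than corolla day 1 by 164-fold between means, and by 60.8- to 608-fold between single libraries. On the log2(FPKM + 1) scale, which understates changes of scarce transcripts, the difference was -5.85 ± 0.43 (SE). The SE is limma's and pools all 4 groups, with petal on day 7 at 0 in both libraries. Between repeats of the 2 groups compared the SD was larger, at 0.687 on that scale. The difference on the log2(FPKM + 1) scale was the lowest of the 26460 genes tested in that comparison. SWEET4 was chosen by such differences, so this rank is a description and no support. Both members passed the filter of at least 1 FPKM in at least 2 libraries, SWEET4 through the corolla day 1 libraries where it was high. The authors' deposited table gives a log2 fold change of -7.29 for it in corolla.

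Read counts are deposited only for genes that the authors called in a tissue. Those of SWEET4 in corolla show what the low values rest on. SWEET4 had 4 and 13 reads in corolla on day 7, against 2490 and 894 reads on day 1. Petal counts of this gene are lacking, since the authors did not call it in petal, but the counts per FPKM of other genes give the relative depth of each library. By that depth the petal day 1 values correspond to 5.96 and 18.0 reads. With 0 reads in a library, up to 3 reads' worth is allowed, or 0.158 and 0.238 FPKM in the 2 petal day 7 libraries, as counting error only. No fold is given against petal on day 7, where the gene is listed at 0.

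Between tissues on day 1, SWEET4 averaged 95.8 ± 53.7 FPKM in corolla and 0.730 ± 0.594 FPKM in petal (SD, n = 2 each). That is a 131-fold difference of means, ranging from 50.3- to 432-fold between single libraries. On the log2(FPKM + 1) scale corolla was higher by 5.73 ± 0.43 (SE of limma, over all 4 groups), with an SD of 0.697 between repeats of the 2 groups compared. In order of level, corolla on day 1 came first. Petal on day 1 and corolla on day 7 overlapped in range, so those neighbours in the order did not differ beyond their spread. Petal on day 7 was listed at 0, but at this depth it could not be set below corolla on day 7, since 0 reads allow up to 0.238 FPKM and corolla day 7 repeat 1 had 0.22 FPKM.

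Neutral/alkaline invertase 3 showed the reverse order in corolla and was abundant in petal throughout. In corolla it stood at 105.94 and 78.74 FPKM on day 7, against 22.67 and 26.25 FPKM on day 1. Petal had 133.54 and 118.4 FPKM on day 7, against 68.52 and 68.33 FPKM on day 1. Day 7 libraries were higher than day 1 libraries in both tissues, without overlap. Corolla values rest on 4522 and 2510 reads on day 7, against 961 and 922 reads on day 1.

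Invertase 3 averaged 92.3 ± 19.2 FPKM in corolla on day 7 and 24.5 ± 2.53 FPKM on day 1 (SD, n = 2 each), a 3.78-fold difference. In petal it averaged 126 ± 10.7 FPKM on day 7 and 68.4 ± 0.134 FPKM on day 1 (SD, n = 2 each), a 1.84-fold difference. The day differences on the log2(FPKM + 1) scale were 1.86 ± 0.16 in corolla and 0.87 ± 0.16 in petal (SE). Of all tested genes, 2.93% differed at least as far between days in either direction in corolla, and 16.8% in petal. The authors' deposited table gives log2 fold changes of 1.98 in corolla, where the gene is called, and 0.93 in petal, where it is not. The corolla difference exceeded the petal one by 0.99 ± 0.23 (SE).

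Between tissues, invertase 3 was lower in corolla on both days. On day 1 corolla had 24.5 ± 2.53 FPKM and petal 68.4 ± 0.134 FPKM, a log2 difference of -1.45 ± 0.16 (SE). On day 7 corolla had 92.3 ± 19.2 FPKM and petal 126 ± 10.7 FPKM, a log2 difference of -0.46 ± 0.16 (SE). Of all tested genes, 5.58% differed at least as far between tissues in either direction on day 1, and 36.2% on day 7. The day 7 difference was thus of a common size. From highest to lowest the order was petal day 7, corolla day 7, petal day 1 and corolla day 1. No neighbours in that order overlapped. The gaps on either side of corolla day 7, up to petal day 7 at 118.4 FPKM and down to petal day 1 at 68.52 FPKM, were both narrower than the spread between its own repeats at 105.94 and 78.74 FPKM, so it was not set apart from either beyond that spread.

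The place of each gene among all transcripts moved accordingly. SWEET4 ranked 24909 and 21013 of 26460 tested genes in corolla on day 7, against 1024 and 2414 on day 1. Invertase 3 ranked 1182 and 1482 in corolla on day 7, against 5482 and 4899 on day 1. In petal invertase 3 ranked 865 and 1103 on day 7, against 2033 and 2024 on day 1.

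SWEET4 was set beside the other described SWEET genes, which were tested with limma on log2(FPKM + 1) over all genes. Descriptions were deposited only for genes that the authors called in a tissue, so a list built from them is no independent evidence of direction in the day comparisons. SWEET13 (c96588.graph_c0) and SWEET14 (c94280.graph_c0) are of the type that mainly carries sucrose in rice. Like SWEET4 both were highest in corolla on day 1, at lower levels than SWEET4 there. In corolla on day 7 SWEET13 lay above SWEET4. SWEET13 had 2.15 and 2.28 FPKM in corolla on day 7, against 29.06 and 24.96 FPKM on day 1. It fell there by 3.12 ± 0.25 (log2, SE; limma adjusted p = 0.000176). SWEET14 had 0 and 0.07 FPKM in corolla on day 7, against 7.5 and 7.18 FPKM on day 1. It rested on 0 and 1 read on day 7, against 136 and 108 reads on day 1. SWEET14 passed the filter on low values through corolla on day 1 alone, so its values are a description and no p is given for it, although it stands among the genes counted below.

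In petal neither gene reached 0.4 FPKM. SWEET13 had 0.27 and 0 FPKM on day 7, against 0.31 and 0.13 FPKM on day 1. SWEET14 was listed at 0 in both libraries of day 7, against 0.32 and 0.13 FPKM on day 1. On day 1 SWEET13 was higher in corolla than in petal by 4.52 ± 0.25 (log2, SE). On day 7 SWEET13 was still higher in corolla, by 1.51 ± 0.25. SWEET13 reached 1 FPKM in corolla libraries alone, so the filter kept it through the tissue where it is high. No p is thus given for its tissue differences, although it stands among the genes counted below. Its day 7 tissue call was lost in a fit of the 4 day 7 libraries.

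SWEET1a (c101302.graph_c0), whose rice namesake belongs to a hexose-carrying group, moved the other way in corolla. It had 336.21 and 245.81 FPKM there on day 7, against 119.88 and 121.33 FPKM on day 1. It rose by 1.25 ± 0.15 (limma adjusted p = 0.00128). Petal had 211.1 and 193.47 FPKM on day 7, against 235.91 and 242.37 FPKM on day 1, and the petal difference of -0.24 ± 0.15 did not pass (limma adjusted p = 0.345). On day 1 SWEET1a was lower in corolla than in petal by a log2 difference of -0.98 ± 0.15 (limma adjusted p = 0.00414).

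The summed level of the 4 described SWEET genes changed less than its makeup. It was 338.58 and 249.11 FPKM in corolla on day 7, against 290.21 and 211.26 FPKM on day 1. SWEET4 made up 0.0650% and 0.381% of that sum in corolla on day 7, against 46.1% and 27.4% on day 1. SWEET1a made up 99.3% and 98.7% of it in corolla on day 7, against 41.3% and 57.4% on day 1. In the 4 petal libraries SWEET1a held 99.4% to 100% of the sum. SWEET genes without a deposited description are not in it.

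**Figure D2:**
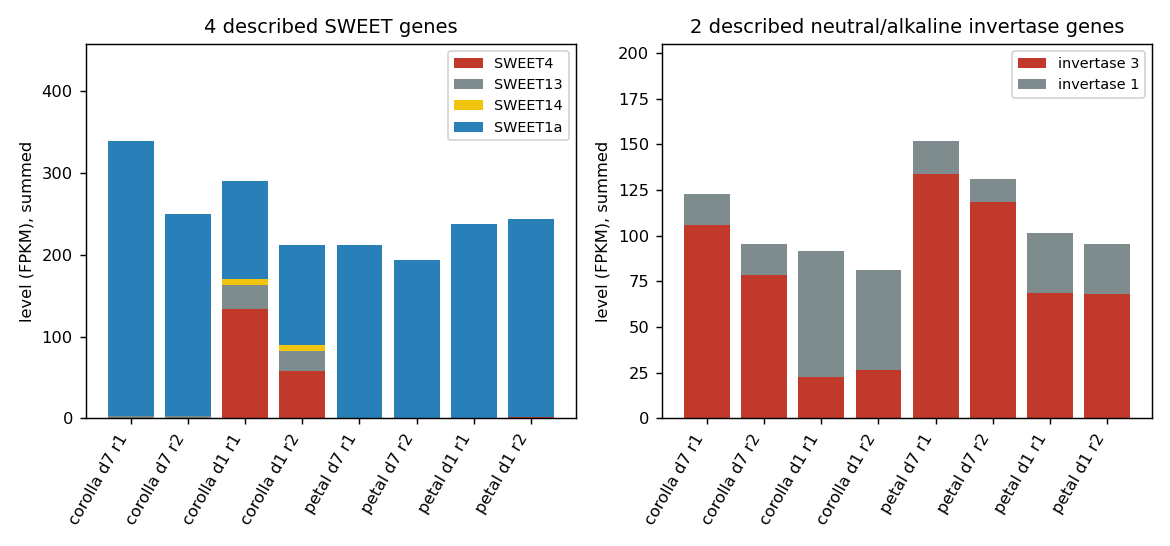
Levels in FPKM stacked by gene for the 4 described SWEET genes (left) and the 2 described neutral/alkaline invertase genes (right), 1 bar per library (d, day; r, repeat). SWEET4 contributes 46.1% and 27.4% of the SWEET sum in corolla on day 1 and under 1% elsewhere, and invertase 3 contributes least in the same 2 libraries.

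The second described neutral/alkaline invertase, invertase 1 (c102877.graph_c0), has a rice hit with a mitochondrial location. It had 16.73 and 16.56 FPKM in corolla on day 7, against 68.91 and 55.11 FPKM on day 1. In petal it had 18.28 and 12.47 FPKM on day 7, against 33.19 and 27.3 FPKM on day 1. Invertase 1 fell with day, with log2 differences of -1.83 ± 0.20 in corolla (limma adjusted p = 0.000719) and -0.95 ± 0.20 in petal (limma adjusted p = 0.0169). The petal call was lost without either petal day 1 library, with adjusted p up to 0.135.

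Invertase 3 was the larger part of the pair in every group except corolla on day 1. Invertase 3 made up 86.4% and 82.6% of their summed level in corolla on day 7, against 24.8% and 32.3% on day 1. In petal it made up 88.0% and 90.5% on day 7, against 67.4% and 71.5% on day 1. The sum itself was 122.67 and 95.3 FPKM in corolla on day 7, against 91.58 and 81.36 FPKM on day 1. In petal the sum was 151.82 and 130.87 FPKM on day 7, against 101.71 and 95.63 FPKM on day 1.

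Around these genes, 23 further described genes of sugar transport, sucrose, hexose, starch and trehalose metabolism were tested, the SWEET genes and invertase 1 above among them. In corolla 4 rose and 15 fell with day, where limma called 17.1% of all 26460 genes, 5.54% higher and 11.6% lower. The median log2 difference was -1.15 over the list and -0.04 over all genes. In petal 4 rose and 12 fell, where 14.8% of all genes were called, 5.19% higher and 9.63% lower. The petal median was -0.75 over the list and -0.04 over all genes. The list was described because the authors had called its genes, so a share above the background is built in.

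**Figure D3:**
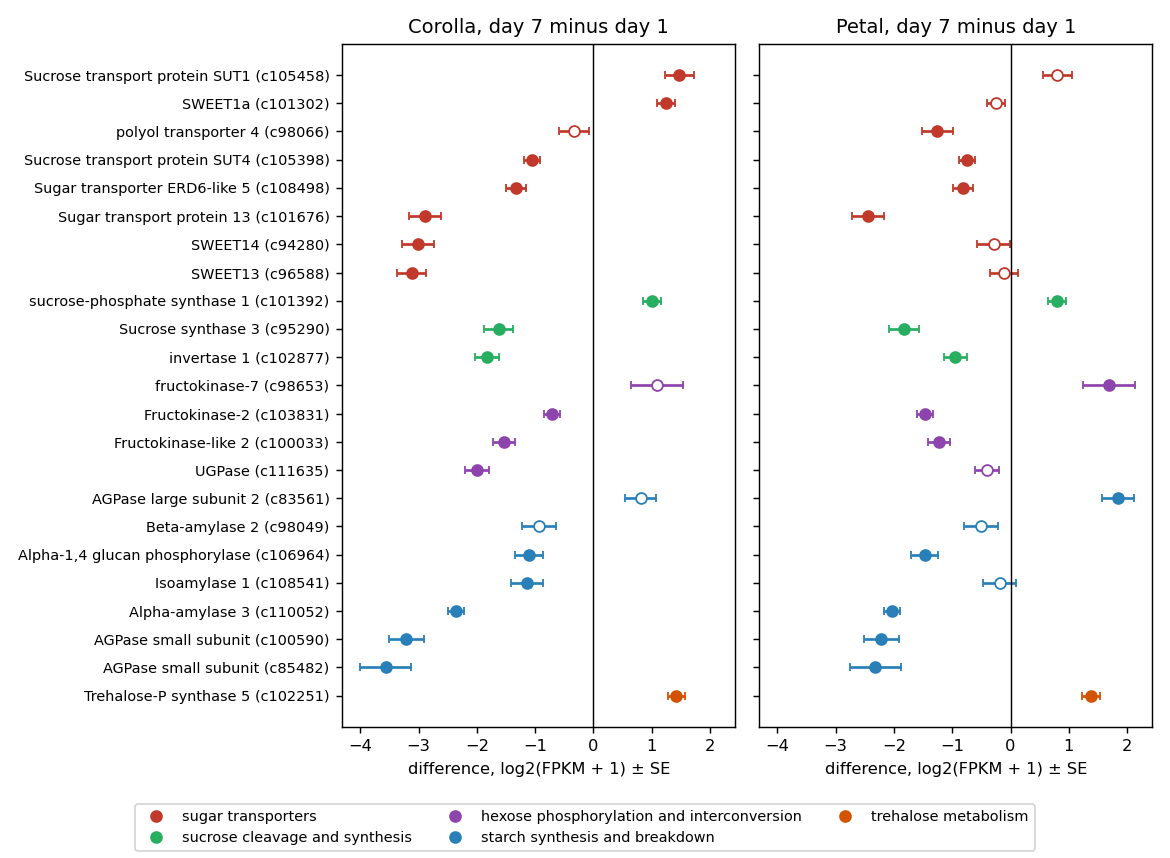
Day 7 minus day 1 for 23 described sugar genes in corolla (left) and petal (right), on the log2(FPKM + 1) scale with SE, coloured by list. Filled points passed limma at an FDR of 0.05 over 26460 genes, and open points did not. In corolla 15 genes fell and 4 rose, and in petal 12 fell and 4 rose.

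Among the transporters 2 of 8 rose and 5 fell in corolla, and 0 rose and 4 fell in petal. Sucrose transport protein SUT1 (c105458.graph_c0), a proton-coupled sucrose carrier, had 40.42 and 37.69 FPKM in corolla on day 7, against 10.54 and 17.04 FPKM on day 1 (log2 1.47 ± 0.25, limma adjusted p = 0.00525). Sugar transport protein 13 (c101676.graph_c0), a hexose and proton symporter in Arabidopsis, averaged 6.84 ± 1.44 FPKM in corolla on day 7 and 58.0 ± 18.3 FPKM on day 1 (SD, n = 2 each). In petal it averaged 32.7 ± 5.44 FPKM on day 7 and 186 ± 57.4 FPKM on day 1. It fell with log2 differences of -2.89 ± 0.28 in corolla (limma adjusted p = 0.000386) and -2.44 ± 0.28 in petal (limma adjusted p = 0.00140). Unlike SWEET4, it was lower in corolla than in petal on day 1, with a log2 difference of -1.66 ± 0.28 (limma adjusted p = 0.00549). The sucrose carrier SUT4 (c105398.graph_c0) fell in both tissues, with log2 differences of -1.05 ± 0.13 in corolla and -0.75 ± 0.13 in petal (limma adjusted p = 0.00154 and 0.00972). ERD6-like 5 (c108498.graph_c1) fell in both as well, with log2 differences of -1.33 ± 0.17 in corolla and -0.82 ± 0.17 in petal (limma adjusted p = 0.00155 and 0.0166). Polyol transporter 4 (c98066.graph_c0) fell in petal by 1.26 ± 0.26 (limma adjusted p = 0.0167).

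Of the 3 other genes of sucrose cleavage and synthesis, 1 rose and 2 fell in each tissue. Sucrose-phosphate synthase 1 (c101392.graph_c0), which makes the phosphate precursor of sucrose, rose like invertase 3. It averaged 31.0 ± 4.64 FPKM in corolla on day 7 and 14.8 ± 0.170 FPKM on day 1, and 40.2 ± 4.67 FPKM in petal on day 7 and 22.6 ± 2.2 FPKM on day 1 (SD, n = 2 each). The log2 differences were 1.01 ± 0.15 and 0.80 ± 0.15 (limma adjusted p = 0.00333 and 0.0123). Sucrose synthase 3 (c95290.graph_c1), which splits sucrose with UDP, fell with log2 differences of -1.63 ± 0.25 in corolla and -1.83 ± 0.25 in petal (limma adjusted p = 0.00355 and 0.00329).

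Of 4 genes acting on hexoses and their phosphates, 0 rose and 3 fell in corolla, and 1 rose and 2 fell in petal. Fructokinase-2 (c103831.graph_c0), which phosphorylates the fructose that invertase releases, averaged 94.6 ± 4.04 FPKM in corolla on day 7 and 155 ± 8.10 FPKM on day 1. In petal it averaged 40.2 ± 4.37 FPKM on day 7 and 113 ± 17.8 FPKM on day 1. It fell with log2 differences of -0.71 ± 0.14 in corolla and -1.47 ± 0.14 in petal (limma adjusted p = 0.0113 and 0.000764). UTP-glucose-1-phosphate uridylyltransferase (c111635.graph_c0), which makes UDP-glucose, fell in corolla by 2.00 ± 0.21 (limma adjusted p = 0.000611). Fructokinase-7 (c98653.graph_c0) rose in petal by 1.68 ± 0.44 (limma adjusted p = 0.0395). Fructokinase-like 2 (c100033.graph_c0) fell in both tissues, with log2 differences of -1.53 ± 0.19 in corolla and -1.23 ± 0.19 in petal (limma adjusted p = 0.00139 and 0.00538), but its Arabidopsis namesake is a partner of the plastid RNA polymerase and not a sugar kinase.

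Starch genes gave 0 risers and 5 fallers of 7 in corolla, and 1 riser and 4 fallers in petal. Alpha-amylase 3 (c110052.graph_c0), a plastid starch-degrading enzyme, averaged 6.98 ± 0.0424 FPKM in corolla on day 7 and 40.2 ± 3.97 FPKM on day 1 (log2 -2.36 ± 0.14, limma adjusted p = 5.71e-05). In petal it averaged 9.91 ± 0.608 FPKM on day 7 and 43.8 ± 3.83 FPKM on day 1 (log2 -2.04 ± 0.14, limma adjusted p = 0.000257). A small subunit of glucose-1-phosphate adenylyltransferase (c100590.graph_c0), which catalyses the first committed step of starch synthesis, fell with log2 differences of -3.21 ± 0.30 in corolla and -2.22 ± 0.30 in petal (limma adjusted p = 0.000355 and 0.00304). A second small-subunit gene, c85482.graph_c0, also fell in both, and how reads divide between the 2 was not tested. Glucan phosphorylase L (c106964.graph_c0), a plastid enzyme that releases glucose-1-phosphate from starch chains, fell with log2 differences of -1.11 ± 0.24 in corolla and -1.48 ± 0.24 in petal (limma adjusted p = 0.0147 and 0.00574). The debranching enzyme isoamylase 1 (c108541.graph_c0) fell in corolla by 1.15 ± 0.28 (limma adjusted p = 0.0254), a call lost without any 1 of the 4 corolla libraries. The large subunit 2 gene (c83561.graph_c0) rose in petal by 1.85 ± 0.27 (limma adjusted p = 0.00400). Trehalose-phosphate synthase 5 (c102251.graph_c0), the single gene of its list, rose by 1.42 ± 0.15 in corolla and 1.38 ± 0.15 in petal (limma adjusted p = 0.000622 and 0.00123).

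Between tissues, 7 of the 23 genes were higher and 5 lower in corolla than in petal on day 1, where limma called 13.9% of all genes, 6.11% higher and 7.8% lower. On day 7, 4 were higher and 5 lower, against 10.3% of all genes, 4.06% higher and 6.24% lower. These genes were described because the authors had called their day effects in the same libraries, so the shares are no independent evidence. The balance depended on the scaling: with TMM or median-of-ratios factors 7 were higher and 5 lower on day 7, and 9 higher and 5 lower on day 1. Invertase 1 was higher in corolla on day 1, at 62.0 ± 9.76 FPKM against 30.2 ± 4.16 FPKM in petal (SD, n = 2 each; log2 1.01 ± 0.20, limma adjusted p = 0.0120), where invertase 3 was lower. That call was lost without corolla day 1 repeat 1 and without petal day 1 repeat 2, with adjusted p up to 0.106. On day 7 invertase 1 had 16.6 ± 0.120 FPKM in corolla and 15.4 ± 4.11 FPKM in petal and did not pass (limma adjusted p = 0.746).

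The day effect differed between the tissues for 3 of the 23 genes, where limma called 0.654% of all genes, 0.261% more positive and 0.393% more negative in corolla. All 3 were SWEET genes that the authors had called in corolla and not in petal. Describing genes called in a single tissue of these same libraries favours a difference of day effects, so the share is partly built in. SWEET13 changed more negatively in corolla (-3.01 ± 0.35) and SWEET1a more positively (1.49 ± 0.22, limma adjusted p = 0.0311). The filter kept SWEET13 through corolla libraries alone, so its difference is given without a p. The other was SWEET14, which the filter kept through corolla on day 1 and whose call is no test of that group. None of the 3 calls held under all settings tried. Without either petal day 1 library 0 of the 23 genes passed, and without either petal day 7 library 1 did. Without either corolla day 1 library 0 of 22 passed, SWEET14 being no longer among the genes tested. For invertase 1 the difference of -0.88 ± 0.28 did not pass (limma adjusted p = 0.271).

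Genes most like each member in pattern were taken as the 5 described genes with the highest Pearson r of log2(FPKM + 1) over the 8 libraries, and the 3 with the lowest. Described genes were 1883 of the 26459 others, and the authors had called each of them in a tissue. The points share libraries and fall into 4 groups of 2, so r is given as a description. With SWEET4, 179 of the 26459 other genes had r above 0.95 and 56 had r below -0.95. The nearest were a two-component response regulator-like APRR2 gene (c100231.graph_c1, r = 0.996), chlorophyll a-b binding protein 13 (c104270.graph_c1, r = 0.994), a light-harvesting protein, and ABC transporter G family member 11 (c102284.graph_c0, r = 0.992), which in Arabidopsis exports cuticle lipids. A ribonuclease H-like gene (c95497.graph_c0, r = 0.990) and proteinaceous RNase P 1 (c97675.graph_c0, r = 0.989) followed. APRR2 stood at 0.29 and 0.47 FPKM in corolla on day 7, against 12.81 and 7.04 FPKM on day 1, and at 0.17 to 0.59 FPKM in petal. The other 4 did not exceed 6 FPKM in any library, so none approached the corolla day 1 level of SWEET4. APRR2, ABC transporter G family member 11, c95497.graph_c0 and c97675.graph_c0 reached 1 FPKM in the corolla day 1 libraries alone. They passed the filter through the group where SWEET4 is high, so their high r is partly built in.

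The patterns least like SWEET4 were low in corolla on day 1 and high elsewhere. They were the homeobox-leucine zipper factor HAT22 (c92246.graph_c0, r = -0.993), actin-depolymerizing factor 5 (c105726.graph_c2, r = -0.988) and a codeine O-demethylase-like gene (c100255.graph_c0, r = -0.986). HAT22 had 17.15 and 13.84 FPKM in corolla on day 7, against 3.23 and 4.7 FPKM on day 1.

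With invertase 3, 216 of the 26459 other genes had r above 0.95, and more, 334, had r below -0.95. The nearest described gene was dehydration-responsive element-binding protein 2A (c107347.graph_c0, r = 0.994), a transcription factor of drought responses. It was followed by the mitochondrial adenine nucleotide transporter ADNT1 (c101551.graph_c0, r = 0.994) and by 2 lecithin-cholesterol acyltransferase-like 4 genes (c110280.graph_c0 and c104123.graph_c0, r = 0.994 and 0.993). Serine acetyltransferase 5 (c109395.graph_c1, r = 0.992), which makes the precursor of cysteine, came next. The opposite patterns were those of neutral ceramidase (c106867.graph_c0, r = -0.995), a clustered mitochondria protein (c110763.graph_c2, r = -0.994) and leucine-rich repeat extensin-like protein 3 (c104385.graph_c1, r = -0.993). Neutral ceramidase had 2.29 and 3.25 FPKM in corolla on day 7, against 11.88 and 10.95 FPKM on day 1.

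**Figure D4:**
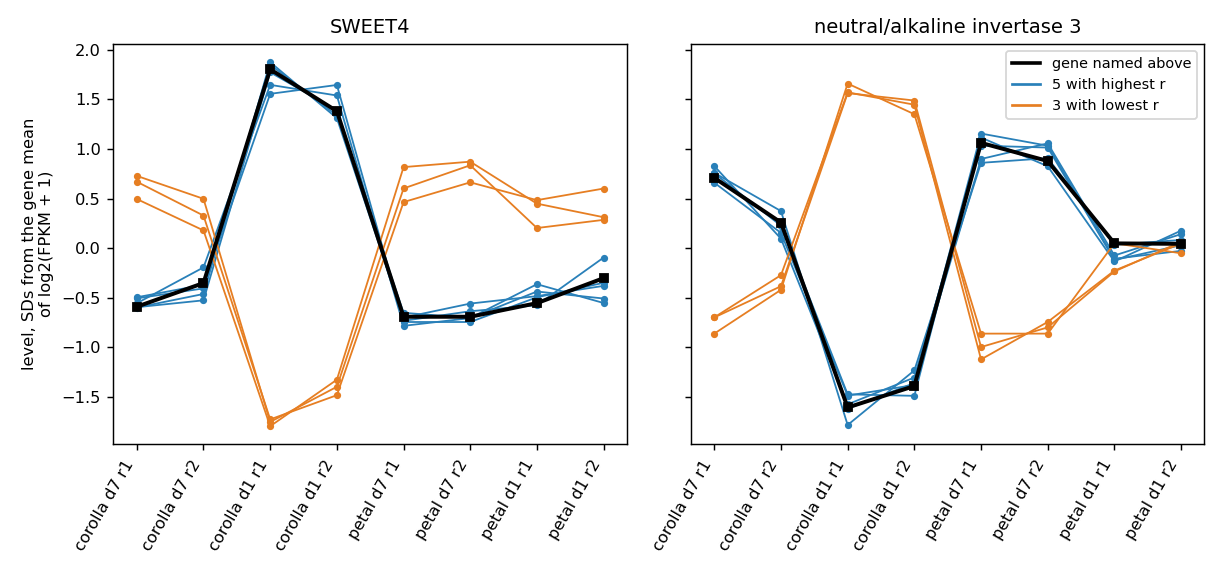
Levels by library (d, day; r, repeat) as SDs from each gene's own mean of log2(FPKM + 1), for SWEET4 (left) and neutral/alkaline invertase 3 (right) in black, with the 5 described genes of highest r in blue and the 3 of lowest r in orange. For both genes the corolla day 1 libraries lie farthest from the other libraries, above them for SWEET4 and below them for the invertase.

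Marker genes also differed between the groups, not all in the pattern of either member. Of 29 described photosynthesis genes, which mark green tissue, 29 fell and 0 rose in corolla, and 17 fell and 0 rose in petal, where 11.6% and 9.63% of all genes fell. Every one of them was described because the authors had called it in corolla, which builds in the corolla count. Their summed level was 1280 and 1085 FPKM in corolla on day 7, against 4762 and 4591 FPKM on day 1, and 581 and 553 FPKM in petal on day 7, against 1491 and 1490 FPKM on day 1. Corolla on day 1 thus held the highest sum, as for SWEET4, and their part in the SWEET4 values was not tested. Fewer cells of a type and less RNA per cell cannot be told apart in these samples.

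Pollen and anther markers did not move together. Of 5 described genes, 0 rose and 2 fell in corolla, where 5.54% of all genes rose and 11.6% fell. In petal 2 rose and 3 fell, where 5.19% of all genes rose and 9.63% fell. Each of the 5 was described because the authors had called it in petal, which builds in the petal count. They summed to 229 and 136 FPKM in corolla on day 7, against 73.2 and 131 FPKM on day 1, and to 53.7 and 47.6 FPKM in petal on day 7, against 106 and 84.7 FPKM on day 1. The corolla sum was carried by 2 genes named pollen-specific protein C13 (c32095.graph_c0 and c95015.graph_c0). A further C13 gene (c86428.graph_c0) had 2.46 and 1.96 FPKM in corolla on day 7, against 15.87 and 11.65 FPKM on day 1, and c97442.graph_c0 had 0.11 and 0.05 FPKM, against 3.94 and 2.23 FPKM. Both were thus high in corolla on day 1 relative to day 7, as SWEET4 was, but unlike it they were higher still in petal on day 1. The single vascular marker, a phloem protein 2-like gene (c102196.graph_c0), had 9.22 and 7.81 FPKM in corolla on day 7, against 6.99 and 5.11 FPKM on day 1. In petal it had 17.45 and 16.05 FPKM on day 7, against 4.7 and 4.67 FPKM on day 1, and it passed as higher there and as lower in corolla than in petal on day 7. No marker of these lists was at 0 in both libraries of a group. The petal identity factors MADS-box 2 and MADS-box 16 (c106110.graph_c1 and c95429.graph_c0) were present in all 8 libraries, and both were highest in corolla on day 1. MADS-box 2 had 165.31 and 173.15 FPKM in corolla on day 7, against 479.27 and 445.93 FPKM on day 1, and 41.62 and 53.96 FPKM in petal on day 7, against 267.51 and 241.33 FPKM on day 1. Of 4 described genes matched by words for floral organ identity factors, these 2 fell in each tissue, against the shares of all genes given above. The 2 that rose in each tissue were MADS-box 26 (c95745.graph_c0) and an AGL8 homolog (c96931.graph_c0). All 4 had been called by the authors in corolla, which builds in the corolla count. The part of these markers in the SWEET4 and invertase 3 values was not tested.

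The corolla day 1 repeats, which differed for SWEET4, differed for most small heat shock proteins in the opposite sense. Of 7 described genes, 6 were lower in repeat 1 than in repeat 2. The exception was a 15.4 kDa class V protein (c96897.graph_c0), at 104.58 FPKM in repeat 1 and 66.09 FPKM in repeat 2. Summed over the 7 genes, they stood at 177 FPKM in repeat 1 and 325 FPKM in repeat 2 of corolla day 1, where SWEET4 had 133.77 and 57.79 FPKM. Petal day 1 had 181 and 351 FPKM for the same sum. Their part in the SWEET4 spread was not tested.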

How the data were processed

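Poly-A RNA of 8 libraries was sequenced and assembled de novo, and the submitters' processing notes list the aligner Bowtie and the quantifier RSEM, without versions. The authors deposited FPKM for all listed genes of each tissue (64490 in corolla, 67182 in petal), read counts for the genes they called alone (1707 and 1053), an adjusted p-value and a log2 fold change, per the file headers. The deposited p-values were not used. Their caller is not given in the labels, and total library depth is not known. Relative depth, from the counts per FPKM of 315 genes with at least 50 reads in every library, was 0.678 to 1.03 of corolla day 1 repeat 1.

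The members and lists were chosen with earlier results of these data known. Lists were matched by words in the Swiss-Prot description, or Nr where that was absent, before the species name; the 2 members were left out of list counts. Photosynthesis is counted over genes present in both tables, and a stromal 70 kDa protein matched by the heat shock words was left out of that sum. The genes named are the members, list genes that passed, SWEET and invertase genes, and the 5 most and 3 least alike by Pearson r.

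Differences were tested on log2(FPKM + 1) with limma 3.58.1 (R 4.3.3), all 8 libraries in 1 fit with the 4 groups, a trend in the prior variance, two-sided, with Benjamini-Hochberg adjustment at an FDR of 0.05 over 26460 genes in both tables with at least 1 FPKM in at least 2 libraries. Each SE of a log2 difference is limma's moderated one, from the spread pooled over the 4 groups. The code was tested on simulated data. Scaling alternatives used edgeR 4.0.16 (TMM) and DESeq2 1.42.0 (size factors) on FPKM. Intervals for depth cover counting error only. Repeats of a group correlated at r = 0.956 to 0.977 across genes, which are not independent, and none was taken for a copy.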

Additional observations from a re-analysis of the deposited data

Results flagged for a closer look

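The day effect differed between corolla and petal by limma's interaction term for 3 sugar genes of the lists. For SWEET13 (c96588.graph_c0) the corolla effect minus the petal effect was -3.01 ± 0.35 (log2, SE). No p is given for SWEET13, which passed the filter on low values through corolla libraries alone. For SWEET1a (c101302.graph_c0) it was 1.49 ± 0.22 (limma adjusted p = 0.0311). For SWEET14 (c94280.graph_c0) it was -2.72 ± 0.40, given without a p because the gene passed the filter on low values through corolla on day 1 alone. That value also depends on the pseudocount, since the gene was listed at 0 in petal on day 7. The corolla repeats of each gene did not overlap between days, but the authors had called all 3 genes in corolla from these same libraries. That gap is thus built in, and it says nothing of the petal part of the difference.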

How the results depend on the processing

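With 2 libraries a group, and with levels under about 0.2 FPKM resting on 3 reads or fewer for SWEET4, low values carry little precision. SWEET4 in corolla, at -5.85 on the log2(FPKM + 1) scale, became -7.25 with a pseudocount of 0.1 and -7.61 from read counts scaled by relative depth. Its corolla to petal difference on day 1, at 5.73, became 6.94 with the pseudocount of 0.1. The smaller pseudocount compresses low values less by construction. The read-count alternative was run for the corolla days alone, and no alternative was run for SWEET4 against petal on day 7, where it is listed at 0. Leaving out 1 library gave SWEET4 differences of -6.45 to -5.25 in corolla and 5.13 to 6.33 between tissues on day 1. The invertase 3 differences kept their sign throughout, with leave-one-out ranges of 1.65 to 2.07 (corolla), 0.78 to 0.95 (petal), -1.55 to -1.35 (tissues, day 1), -0.67 to -0.25 (tissues, day 7) and 0.78 to 1.21 (difference of day effects).

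Of 59 calls for single sugar genes, 31 passed under every alternative run and 0 reversed; the 3 calls of SWEET14, kept by the filter through corolla on day 1, are among the 59. Petal day calls lost without petal day 1 repeat 1 were those of SUT4, ERD6-like 5, polyol transporter 4, sucrose-phosphate synthase 1, invertase 1, fructokinase-like 2, fructokinase-7 and c85482.graph_c0. Those of ERD6-like 5, polyol transporter 4, c85482.graph_c0 and fructokinase-7 were also lost without petal day 7 repeat 1, and the highest adjusted p of these calls under any alternative was 0.216. In corolla, fructokinase-2 and glucan phosphorylase L were lost without either day 1 library, and without repeat 2 and repeat 1 of day 7 in that order of genes, with adjusted p up to 0.103 and 0.102. Differences of the day effect passed for 3 sugar genes, but for 1 with a pseudocount of 0.1, and for 0 to 2 without 1 library. The SWEET13 call was lost with a pseudocount of 0.1, and that of SWEET1a with no trend in the prior variance. SWEET14 was not tested without either corolla day 1 library, which left 22 genes. Day 7 tissue calls numbered 9, but 4 in a fit of the 4 day 7 libraries, and 5 to 8 without 1 library. Leaving out 1 library gave 15 to 19 calls for corolla days (main value 19), 8 to 16 for petal days (main value 16) and 5 to 13 for tissues on day 1 (main value 12). The lowest counts came without petal day 1 repeat 1 (8) and without corolla day 1 repeat 2 (5); the cause was not tested. The causes of the other moves were not tested either.

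The repeats share numbers 1 and 2, but the labels do not say that a number marks the same flowers. Deviations of same-numbered corolla and petal libraries correlated at 0.139 on day 1 and 0.293 on day 7 across all tested genes. Between days they correlated at -0.005 to 0.001. Over the 13236 genes averaging 5 FPKM or more, the values were higher within a day, at 0.394 on day 1 and 0.594 on day 7. Between days they stayed at -0.021 to -0.005. Same-numbered libraries of a day thus shared part of their deviation, which the main fit does not model. The cause was not tested. With the repeat number as a block, calls were 19 and 17 for the corolla and petal days, 11 and 9 for the tissues on days 1 and 7, and 3 for the difference of day effects. With the block within day the last 3 were 10, 11 and 3. TMM and median-of-ratios scaling moved the median of all genes by less than 0.1. Under TMM the corolla split of all genes was 2236 higher and 3063 lower, against 1465 and 3065 unscaled, and for tissues on day 7 it was 1812 and 1565, against 1074 and 1652. For tissues on day 1 it was 2278 and 2047, against 1617 and 2063.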
